A study of Mus musculus with 15 samples.

Results

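The mitochondrial ribosomal protein genes were followed across 6 groups of mouse bone marrow progenitors. They were taken as the rows of the deposited table whose symbol is Mrpl or Mrps, a number and at most 1 further letter, giving 76 of the 12798 genes, 47 Mrpl and 29 Mrps genes. All 76 were among the 12572 genes that passed the filter on low values, which asked for 2 libraries at log2 0 or above. None of the 76 lay at a library's lowest value in any of the 15 libraries. By protein structure, 49 members belong to the large subunit and 26 to the small subunit. Mrps30 and Mrps18a, named for the small subunit, belong to the large one. Mrps36 is no ribosomal protein in the current view but a component of the 2-oxoglutarate dehydrogenase complex, and it was kept because the symbol rule holds it.

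The study followed bulk RNA-seq libraries of progenitors of innate lymphoid cells (ILC), all from C57BL/6 bone marrow, sorted as pools of cells. ALP_WT (n = 3) were all-lymphoid progenitors of genotype Tcf7EGFP/+ with the gate Lin- Kit+ 2B4+ a4b7- and, further, Flt3high and IL-7Ra+. The EILP_WT group (n = 3), early innate lymphoid progenitors of genotype Tcf7EGFPnull/+, had the gate Lin- Kit+ 2B4+ a4b7+ with Tcf7+ and Thy1-, and EILP_KO (n = 2) were sorted by that gate too, from Tcf7EGFPnull/- mice. EILP_WT cells therefore carried a null allele too. The sEILP_WT (n = 2) and cEILP_WT (n = 3) groups, of genotype Tcf7GFP Zbtb16GFP, divided the EILP gate: sEILP_WT were Zbtb16low and Flt3high, cEILP_WT were Zbtb16high and Flt3low. ILCP_WT (n = 2), the ILC progenitors, had the genotype Tcf7EGFP/+ and the gate a4b7+ Tcf7+ Thy1+ IL-7Ra+. ILCP_WT vs ALP_WT is the stage comparison in which both groups carry the same genotype label. In the other comparisons of stages, genotype label and stage cannot be told apart, except cEILP_WT vs sEILP_WT. No agent was given. Whether replicates came from separate mice is not in the labels, and p-values therefore measure only the spread between these libraries.

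Mitochondrial ribosomes translate the small set of proteins encoded by mitochondrial DNA, all of them parts of the oxidative phosphorylation system. Their protein parts are encoded in the nucleus, made in the cytosol and imported, and they assemble on rRNA made within the organelle. Compared with bacterial ribosomes they hold less rRNA and more protein, so that many of their proteins have a bacterial homologue and others are specific to mitochondria. In the classes used here, written from textbook nomenclature, 46 members were counted with a bacterial homologue and 29 as mitochondria-specific. Mrps36 was placed in neither class. The placement of some members is open to doubt, among them Mrpl55, counted with a homologue, and Mrps18a and Mrps18b, counted as mitochondria-specific. In lymphoid cells, mitochondrial translation is known for its part in the activation and expansion of T cells.

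The genes lie on 17 mouse chromosomes, with at most 10 on 1 of them (chromosome 11). All 76 had a locus in the GENCODE vM21 annotation (GRCm38, the assembly called mm10). The exons of 26 members overlap exons on the opposite strand and those of 7 overlap exons of another gene on the same strand. Whether the authors' counting used strand is not stated, so reads of such members and of their partners may not have been told apart. Of the 7 genes the results turn on, this applies to Mrps7, whose exons overlap those of Gga3 and Mif4gd. Pseudogene copies are a further source of doubt: Mrpl23-ps1 has its own row in the table.

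Promoters are shown for Mrps22, Mrpl16 and Mrpl42, because these 3 members differed among the 6 groups in the F test described below. The sequences are RefSeq windows on GRCm38.p6, from 250 bases before to 50 bases after the annotated start, written 5′ to 3′ on the gene's strand. Capitals mark matches, on either strand, to 5 short motifs: GCGCATGC (NRF1), CCGGAAG (ETS family, which includes GABPA), AAGATGGCG (YY1), CACGTG (E-box, the MYC site) and GGGCGG (SP1). Mrps22 (chr9:98601630-98601929, minus strand) holds a GGGCGG and a CCGGAAG match.
Mrps22: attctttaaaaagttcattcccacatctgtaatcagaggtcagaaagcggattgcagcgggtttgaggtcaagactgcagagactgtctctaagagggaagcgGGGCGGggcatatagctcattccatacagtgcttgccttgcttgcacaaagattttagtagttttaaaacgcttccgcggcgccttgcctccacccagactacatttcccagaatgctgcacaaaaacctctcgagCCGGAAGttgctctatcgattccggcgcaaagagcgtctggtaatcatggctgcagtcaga
Mrpl16 (chr19:11770165-11770464, plus strand) holds no match to the 5 motifs.
Mrpl16: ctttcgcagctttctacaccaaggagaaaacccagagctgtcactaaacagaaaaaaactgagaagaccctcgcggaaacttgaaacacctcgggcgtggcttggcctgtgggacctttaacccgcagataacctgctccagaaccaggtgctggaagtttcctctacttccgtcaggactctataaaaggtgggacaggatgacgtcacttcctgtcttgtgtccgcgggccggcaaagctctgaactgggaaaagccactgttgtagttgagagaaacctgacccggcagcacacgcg
Mrpl42 (chr10:95501900-95502199, minus strand) holds a GGGCGG match on the opposite strand and an AAGATGGCG match just after the start.
Mrpl42: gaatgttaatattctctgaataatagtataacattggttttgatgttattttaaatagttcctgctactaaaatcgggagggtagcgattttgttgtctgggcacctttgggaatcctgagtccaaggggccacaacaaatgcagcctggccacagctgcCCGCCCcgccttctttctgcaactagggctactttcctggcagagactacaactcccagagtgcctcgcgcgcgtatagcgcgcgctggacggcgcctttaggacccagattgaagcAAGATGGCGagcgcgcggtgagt
No motif of the 5 was in all 3 promoters, while GGGCGG was in those of Mrps22 and Mrpl42.

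The RefSeq table held 73 promoters of 67 members, matched by symbol, and windows of the same gene can overlap. CCGGAAG occurred in 24 of the 73 (32.9%), against 17.9% of the promoters of all tested genes and 8.86% of all 32851 promoters. AAGATGGCG was found in 8 (10.96%), against 3.11% and 1.40%. GCGCATGC was also found in 8 (10.96%), against 5.32% and 2.71%. The E-box was present in 9.59% of member promoters, against 9.98% for tested genes and 7.15% for all promoters. GGGCGG was in 53.4% of member promoters and in 61.8% of those of tested genes. Median GC content was 58.3% for members and 60.7% for tested genes. The last 30 bases of the window lay in a transcript of the gene for 69 of the 73 promoters. A match describes letters in a window and not a bound site.

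The values are on the deposited log2 scale, on which 1 unit is a factor of 2. Whether they were scaled by transcript length is not stated, so levels are compared between groups within a gene and not between genes. Depth per library is unknown, since no counts were analysed here. In 13 libraries the median over the 76 members lay between 5.59 and 5.94. The 2 ILCP_WT libraries were below all of them, at 5.36 and 5.37. By group, the library medians averaged 5.86 ± 0.13 (SD, n = 3) in ALP_WT, 5.76 ± 0.05 (n = 2) in sEILP_WT, 5.74 ± 0.04 (n = 3) in cEILP_WT, 5.70 ± 0.12 (n = 3) in EILP_WT, 5.85 ± 0.08 (n = 2) in EILP_KO and 5.36 ± 0.01 (n = 2) in ILCP_WT. The 5 groups above ILCP_WT overlapped one another in these medians, except that cEILP_WT lay below EILP_KO. In bulk samples, fewer cells of a type and less RNA per cell cannot be told apart.

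**Figure D1:**
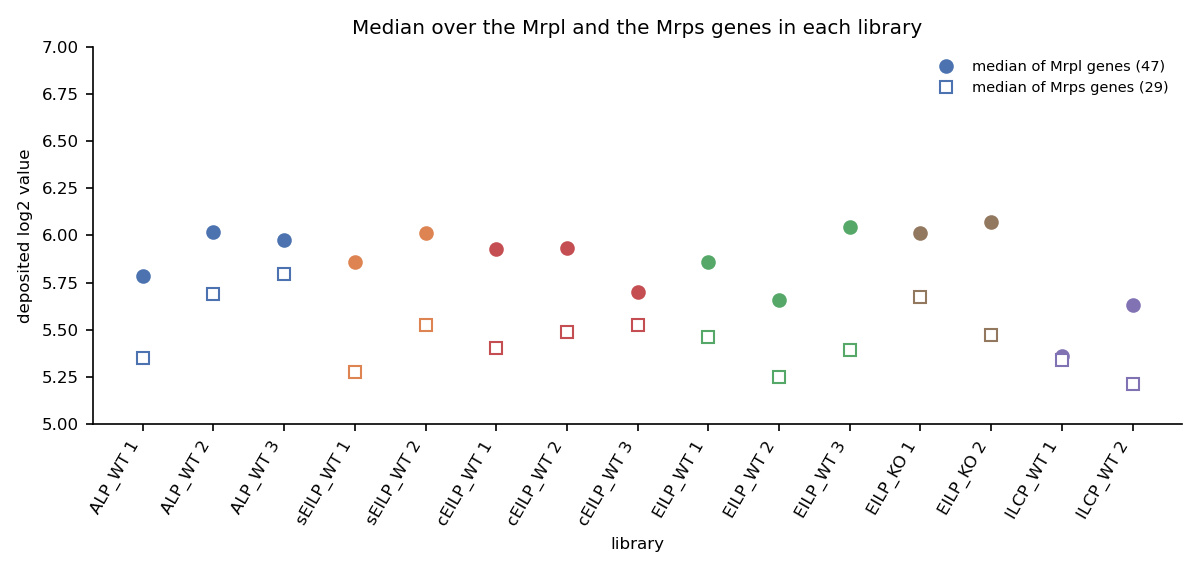
Median deposited log2 value over the 47 Mrpl genes (filled circles) and the 29 Mrps genes (open squares) in each of the 15 libraries, coloured by group; the axis does not start at 0. The Mrpl median was lowest in the ILCP_WT libraries, at 5.36 and 5.63, and the Mrps medians of ILCP_WT, 5.34 and 5.21, overlapped those of other groups.

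The Mrpl and Mrps genes did not share this picture equally. Mrpl medians were 5.36 and 5.63 in ILCP_WT and 5.66 to 6.07 in the other 13 libraries. Mrps medians were 5.34 and 5.21 in ILCP_WT and 5.25 to 5.79 elsewhere, with overlap. ILCP_WT replicate 1 was below the gene's mean over the 15 libraries for 59 of 76 members and replicate 2 for 54. For 49 members (64.5%) the lowest of the 6 group means was that of ILCP_WT, against 29.4% of all tested genes. EILP_KO (n = 2) held the highest group mean for 26 members and ALP_WT (n = 3) for 19. The shares of all tested genes were not computed for the highest mean, so these counts are not read as a trait of the members.

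**Figure D2:**
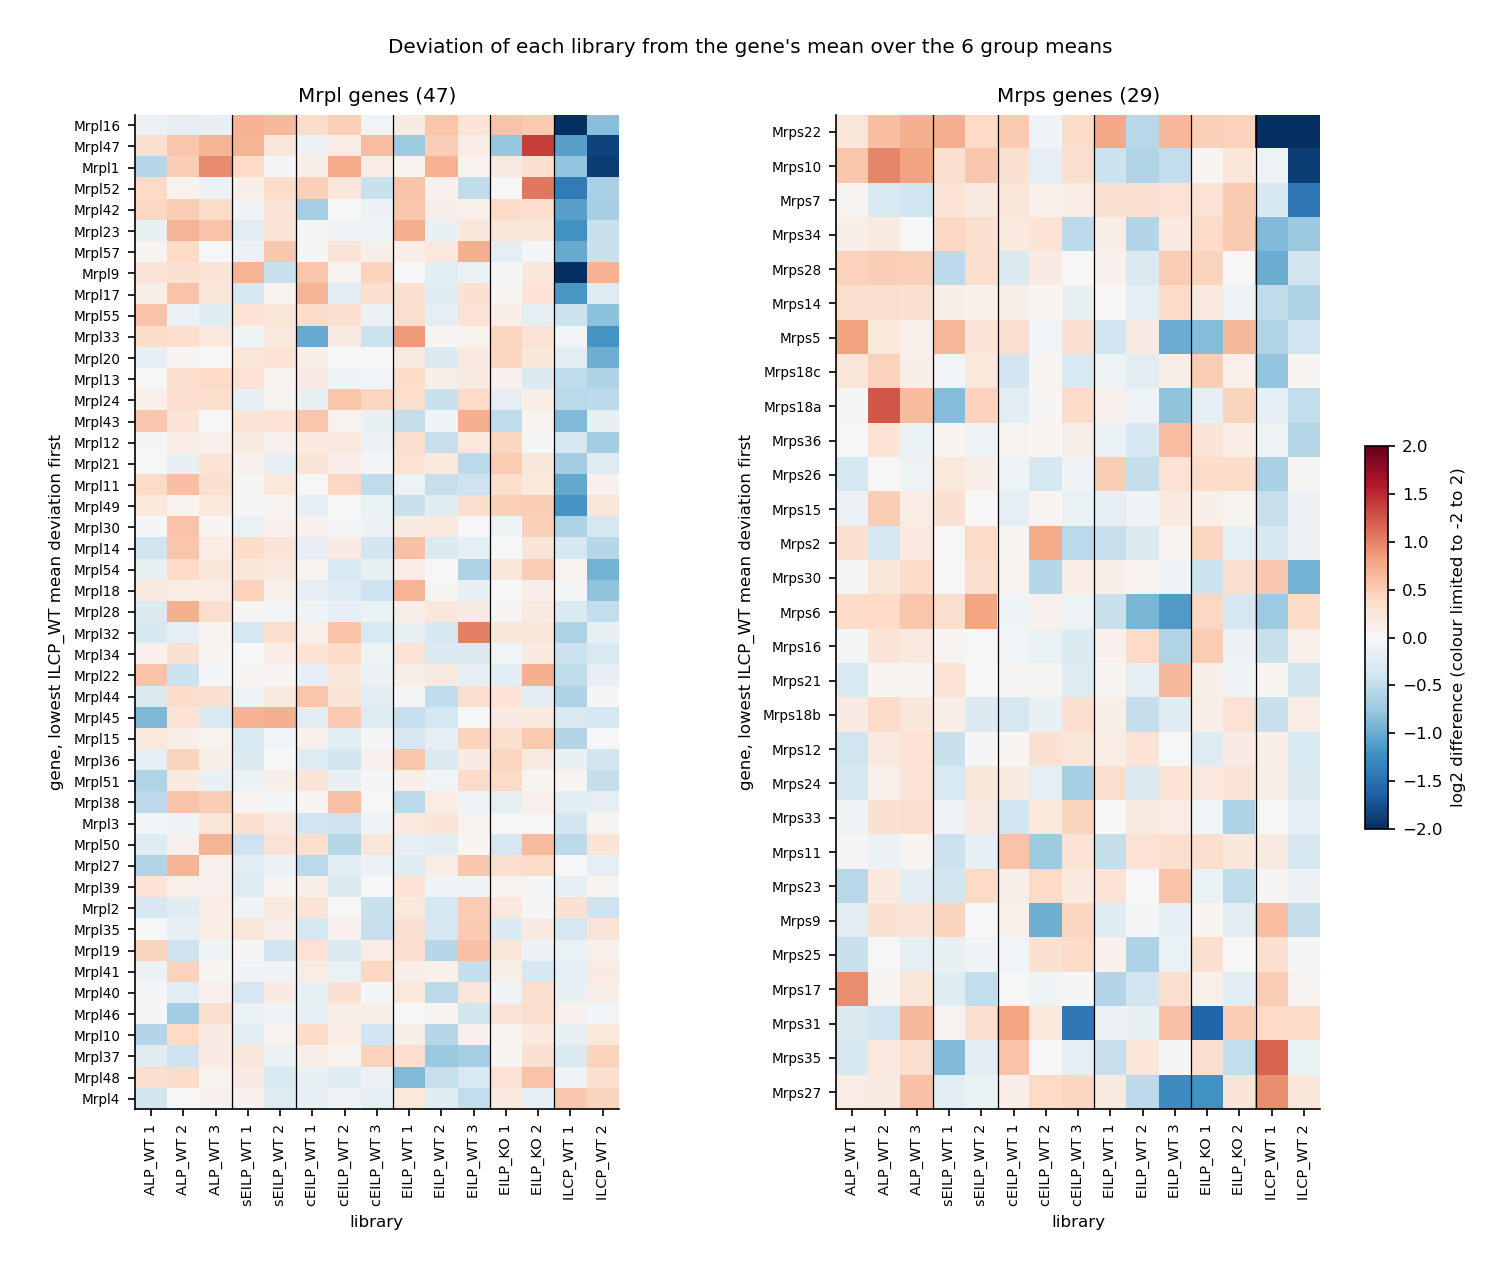
Each row is 1 member and each column 1 library; colour is the library's log2 value minus the gene's mean over the 6 group means, limited to -2 to 2, with vertical lines between groups. The 2 ILCP_WT columns are mostly blue, and Mrps22 is dark in both. Set against the gene's mean over the 15 libraries, they were lower for 59 and 54 members.

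The 6 group means of most members lay within 1 log2 unit. The range of the 6 group means ran from 0.21 to 2.68 log2 units with a median of 0.69, against a median of 1.71 over all tested genes. It was at least 1 unit for 18 members and under 1 for 58. The residual SD within groups was 0.16 to 0.86 (median 0.33), against a median of 0.71 for all tested genes. Both backgrounds include genes measured near the lowest values, where no member lay. The lowest mean over the 6 groups was -4.04 among all tested genes and 3.89 among members. The narrowest ranges were those of Mrpl40 (0.21), Mrpl41 (0.25) and Mrpl10 (0.25), all large-subunit proteins. Mrps22 (2.68), Mrpl16 (2.33) and Mrpl47 (1.98) had the widest.

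A limma F test over the 6 groups, adjusted over all tested genes, called 3 of the 76 members, while 8.36% of all tested genes were called. These were Mrps22 (adjusted p = 0.0202), Mrpl16 (adjusted p = 0.0351) and Mrpl42 (adjusted p = 0.0408). At an unadjusted p under 0.05 there were 7 members and 24.2% of all tested genes. The share of members was thus below the background by both rules. The count was 1 without ALP_WT replicate 1, 2 or 3, EILP_KO replicate 1 or 2, sEILP_WT replicate 1 or 2, or ILCP_WT replicate 2.

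ILCP_WT was compared with ALP_WT, EILP_WT and cEILP_WT. These 3 comparisons share the 2 ILCP_WT libraries, so their results are not independent. Against ALP_WT, 0 members rose and 5 fell (6.58%): Mrps22, Mrpl42, Mrps14, Mrps10 and Mrpl16. Of all tested genes, 13.4% were called in this comparison, 7.86% as lower. The count of members was therefore below the background, while the members' median log2 fold change was -0.38 against -0.09 over all tested genes. Of the 76 members, 63 (82.9%) had a negative estimate, against 53.2% of all tested genes. Both ILCP_WT libraries lay below every ALP_WT library for 33 members and above for 1. Among all tested genes 21.4% lay wholly lower and 22.4% wholly higher.

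Against EILP_WT, 0 members rose and 5 fell (6.58%): Mrps22, Mrpl16, Mrpl42, Mrps7 and Mrpl57. The background was 6.95% called, of which 4.34% of all tested genes were lower. The median was -0.32 for members and -0.06 for all tested genes, and 61 members (80.3%) were negative against 52.4%. ILCP_WT lay wholly below EILP_WT for 22 members, where 17.5% of all tested genes did so, and wholly above for 3 (background 14.8%).

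Against cEILP_WT, 0 members rose and 3 fell: Mrps22, Mrpl16 and Mrps7. The background was 7.41% called, 4.72% as lower. The median was -0.29 for members and -0.07 for all tested genes, with 62 members (81.6%) negative against 52.8% of all tested genes. ILCP_WT lay wholly below cEILP_WT for 26 members (19.9% of all tested genes) and wholly above for 3 (22.1%).

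The genes at their library's lowest value numbered 2124 and 2224 in the ILCP_WT libraries, 747 to 1910 in 12 of the others and 2575 in EILP_WT replicate 3. The summed level of 4 T cell markers was also higher in ILCP_WT, at 5.80 to 5.87, than in ALP_WT, at -2.71 to 4.70. Against ALP_WT 3 of the 4 had positive estimates and 1 a negative one, and Cd3g and Cd3e rose. Summed plasmacytoid dendritic cell markers (3 genes) were 5.97 to 7.42 in ILCP_WT and 10.13 to 10.62 in ALP_WT, with Siglech at the lowest value in both ILCP_WT libraries. The 7 neutrophil markers summed to 5.81 to 9.46 in ILCP_WT and 9.17 to 10.56 in ALP_WT, with Ngp, Ltf and Camp at the lowest value in both ILCP_WT libraries. The 3 mast cell and basophil markers summed to 6.49 to 8.20 in ILCP_WT, 3.34 to 4.5 in ALP_WT, 9.17 to 9.65 in EILP_WT and 10.10 to 10.54 in cEILP_WT. Among them Cpa3 rose by 4.15 against ALP_WT and fell by 2.66 against EILP_WT and by 3.57 against cEILP_WT. Against ALP_WT 1 of the 3 had a negative estimate, Mcpt8 (-1.97, not called), with an SD of 8.53 between the ILCP_WT libraries. Against EILP_WT 1 of the 3 had a positive estimate. Irf8, on the plasmacytoid dendritic cell list, fell by 4.11 against ALP_WT. It fell by 3.65 against EILP_WT and fell by 2.30 against cEILP_WT. That list summed to 9.48 to 10.80 in EILP_WT and 8.14 to 9.82 in cEILP_WT. For the 4 T cell markers the sums were -2.60 to 5.70 in EILP_WT and -1.11 to 1.73 in cEILP_WT, and 0 of the 4 passed limma against either group. The part of these differences in the results on the members was not tested.

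**Figure D3:**
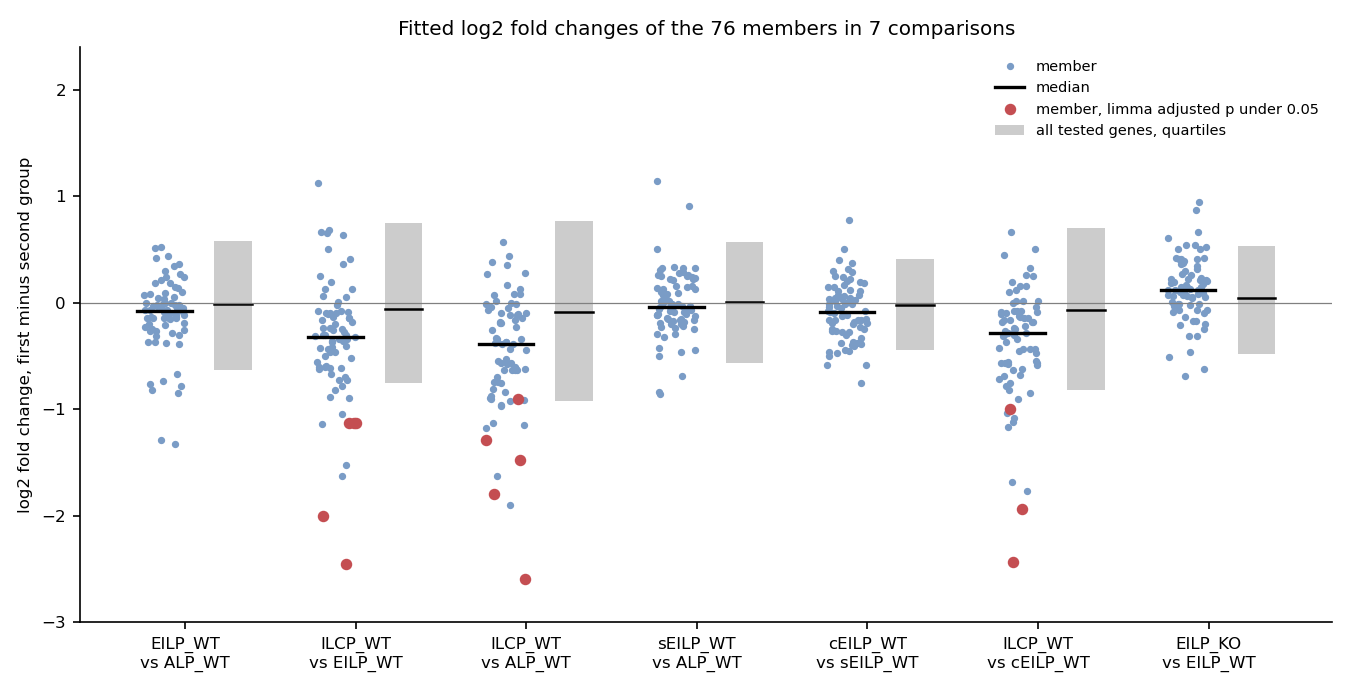
Fitted log2 fold changes of the 76 members (points) in the 7 comparisons, first minus second group, with the members' median (line) beside the median and quartiles of all tested genes (grey bars); red points passed limma at an adjusted p under 0.05. Red points appear in the 3 comparisons with ILCP_WT, and their medians are -0.32, -0.38 and -0.29.

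Mrps22, a small-subunit protein specific to mitochondria, was the member with the widest range. It lies on chromosome 9 at 98588730 to 98601660, minus strand. Its log2 values were 2.60 and 2.69 in ILCP_WT and 5.0, 5.36 and 5.47 in ALP_WT. The sEILP_WT values were 5.49 and 5.16, the cEILP_WT values 5.28, 4.68 and 5.13, the EILP_WT values 5.52, 4.21 and 5.42 and the EILP_KO values 5.23 and 5.23. Both ILCP_WT libraries were below all 13 others, the nearest being EILP_WT replicate 2, and the other 5 groups overlapped. Mrps22 fell by 2.59 against ALP_WT (SE 0.46, limma adjusted p = 0.0035), which is a level 6.04 times lower. Against EILP_WT it fell by 2.45 (SE 0.46, limma adjusted p = 0.0076) and against cEILP_WT by 2.43 (limma adjusted p = 0.0083). Within batch 1 the estimates against these 3 groups were -2.41, -2.27 and -2.39, and within batch 2 they were -2.73, -2.73 and -2.44. Each batch holds 1 ILCP_WT library, and no within-batch estimate of Mrps22 passed the test.

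Mrpl16, the homologue of the bacterial protein that lies near the peptidyl transferase centre, is a large-subunit member on chromosome 19 at 11770391 to 11774960, plus strand. Its values were 3.12 and 4.73 in ILCP_WT, 5.46, 5.38 and 5.42 in ALP_WT, 5.74, 6.13 and 5.85 in EILP_WT, and 5.94, 6.06 and 5.52 in cEILP_WT. In sEILP_WT they were 6.28 and 6.22, and in EILP_KO 6.15 and 6.11. The 2 ILCP_WT libraries were lowest and differed from each other by more than the libraries of any other group, and ALP_WT was next lowest without overlap with the rest. Mrpl16 fell by 2.01 against EILP_WT (SE 0.41, limma adjusted p = 0.0127), by 1.94 against cEILP_WT (limma adjusted p = 0.0151) and by 1.48 against ALP_WT (limma adjusted p = 0.0335). Without ILCP_WT replicate 1 the estimates were -1.07, -1.0 and -0.64 and none passed (limma adjusted p = 0.112, 0.140 and 0.282). Within batch 1 they were -2.82, -2.88 and -2.34 and all passed, and within batch 2 they were -1.12, -0.80 and -0.68 and none did. The call against ALP_WT was also lost without any 1 of the ALP_WT or sEILP_WT libraries (limma adjusted p 0.0515 to 0.0987), and that against cEILP_WT without cEILP_WT replicate 2 (-1.81, limma adjusted p = 0.0550).

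Mrpl42 is a mitochondria-specific protein of the large subunit, on chromosome 10 at 95480805 to 95501940, minus strand. Its values were 5.62 and 6.03 in ILCP_WT, 7.11, 7.20 and 7.07 in ALP_WT, 7.23, 6.81 and 6.80 in EILP_WT and 7.08 and 7.04 in EILP_KO. The sEILP_WT values were 6.62 and 6.95, and those of cEILP_WT 6.03, 6.69 and 6.58. ILCP_WT was below ALP_WT, EILP_WT, EILP_KO and sEILP_WT without overlap, and overlapped cEILP_WT through its replicate 1. Mrpl42 fell by 1.29 against ALP_WT (SE 0.26, limma adjusted p = 0.0068) and by 1.13 against EILP_WT (SE 0.26, limma adjusted p = 0.0207). Against cEILP_WT the estimate was -0.62 (limma adjusted p = 0.180). Without ILCP_WT replicate 1 the estimates against ALP_WT and EILP_WT were -1.09 and -0.91 (limma adjusted p = 0.0510 and 0.151), and without EILP_WT replicate 1 the latter was -0.98 (limma adjusted p = 0.0613). Within batches 1 and 2 they were -1.49 and -1.10 against ALP_WT and -1.41 and -0.76 against EILP_WT, and none passed.

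**Figure D4:**
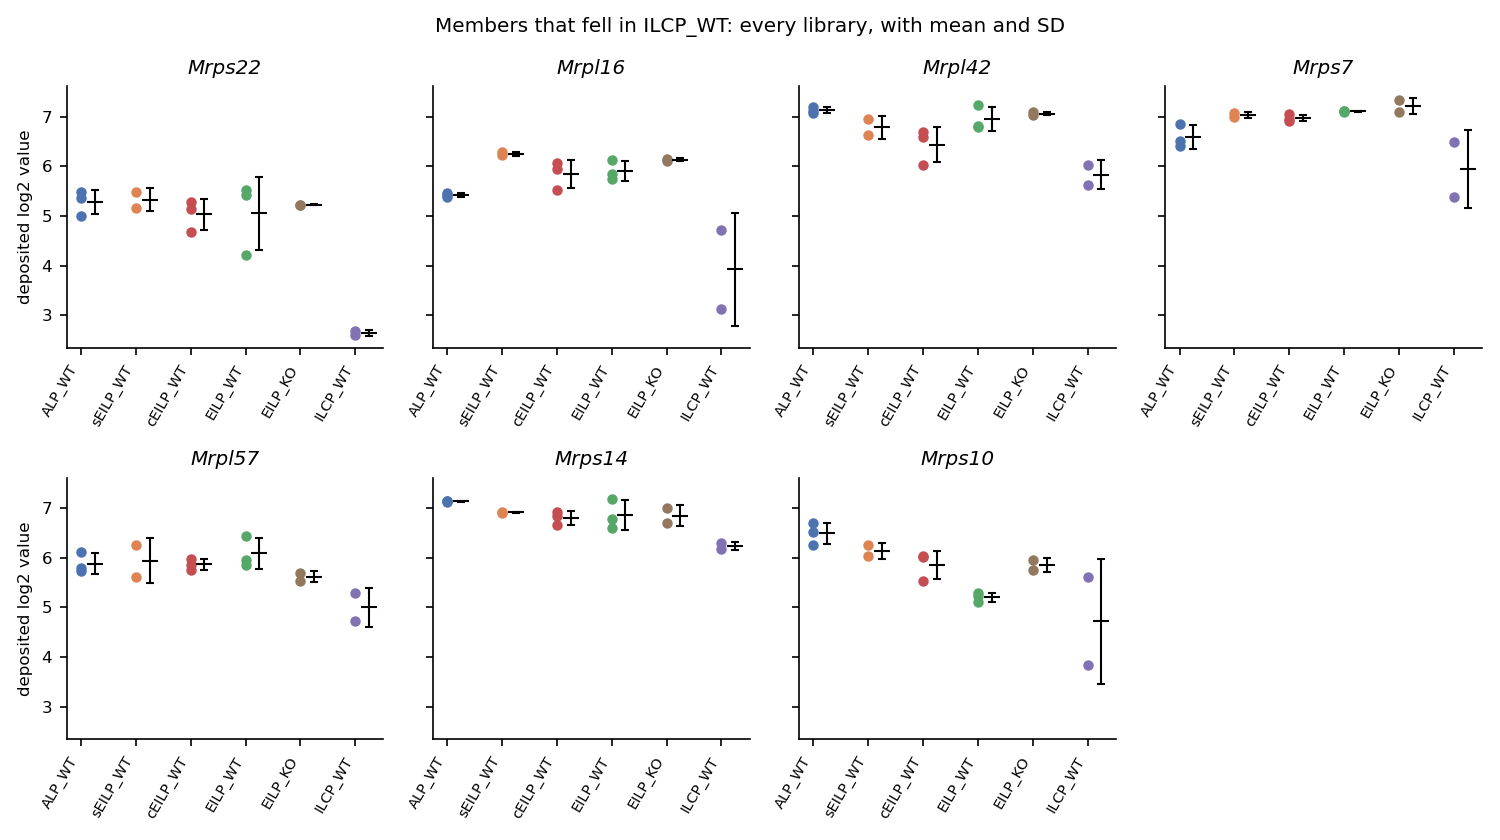
Deposited log2 value in every library for the 7 members that fell in at least 1 comparison with ILCP_WT; points are libraries, and the bar beside them is the group mean with its SD (n = 2 or 3), on an axis that does not start at 0. The ILCP_WT points of Mrps22 lie at 2.60 and 2.69, apart from all others, while those of Mrpl16, Mrps7 and Mrps10 are more than 1 log2 unit apart.

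The other 4 were 3 small-subunit proteins with bacterial homologues, Mrps7, Mrps10 and Mrps14, and Mrpl57, a short mitochondria-specific protein of the large subunit. Mrps7, the homologue of a bacterial protein that organises the head of the small subunit, was 6.49 and 5.38 in ILCP_WT, 7.11, 7.11 and 7.10 in EILP_WT, 7.04, 6.92 and 6.96 in cEILP_WT and 6.86, 6.51 and 6.41 in ALP_WT. ILCP_WT was below EILP_WT and cEILP_WT and overlapped ALP_WT. Mrps7 fell by 1.13 against EILP_WT (SE 0.26, limma adjusted p = 0.0241) and by 0.996 against cEILP_WT (SE 0.26, limma adjusted p = 0.0408), with -0.69 against ALP_WT (limma adjusted p = 0.109). Without ILCP_WT replicate 2 the first 2 estimates were -0.64 and -0.51 (limma adjusted p = 0.175 and 0.293), and without EILP_WT replicate 3 the first was -1.02 (limma adjusted p = 0.0762). Within batches 1 and 2 they were -0.62 and -1.72 against EILP_WT and -0.49 and -1.58 against cEILP_WT, and none passed. The call against cEILP_WT passed in 11 of 27 alternatives and was lost without any 1 of ALP_WT replicates 2 and 3, EILP_WT replicates 1 and 2 and the sEILP_WT and cEILP_WT libraries (limma adjusted p 0.0506 to 0.140), and with the replicate block (-1.07, limma adjusted p = 0.0541).

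Mrps10 was 5.61 and 3.83 in ILCP_WT, 6.26, 6.69 and 6.51 in ALP_WT, 5.29, 5.10 and 5.22 in EILP_WT and 6.01, 5.53 and 6.03 in cEILP_WT. In ILCP_WT replicate 1 the value was above all 3 EILP_WT libraries, and both ILCP_WT values were below ALP_WT. Against ALP_WT it fell by 1.79 (SE 0.44, limma adjusted p = 0.0179). Without ILCP_WT replicate 2 the estimate was -0.75 (limma adjusted p = 0.236), and without ALP_WT replicate 2 or 3 it was -1.67 or -1.76 (limma adjusted p = 0.0580 or 0.0520). Within batch 1 it was -0.65 and within batch 2 -2.78, and neither passed.

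Mrps14 was 6.29 and 6.17 in ILCP_WT, 7.14, 7.14 and 7.11 in ALP_WT, 6.78, 6.60 and 7.18 in EILP_WT and 6.92, 6.84 and 6.65 in cEILP_WT. ILCP_WT was below every library of these 3 groups and the 2 ILCP_WT values were close to each other. The fall against ALP_WT was by 0.90 (SE 0.22, limma adjusted p = 0.0172), while the estimates against EILP_WT and cEILP_WT were -0.62 and -0.57 (limma adjusted p = 0.113 and 0.142). Without ILCP_WT replicate 1 or 2 the estimate against ALP_WT was -0.96 or -0.84 (limma adjusted p = 0.0505 or 0.105). Within batches 1 and 2 it was -0.85 and -0.95, and neither passed.

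Mrpl57 was 4.72 and 5.28 in ILCP_WT, 5.86, 5.95 and 6.44 in EILP_WT, 5.78, 6.12 and 5.73 in ALP_WT and 5.76, 5.98 and 5.85 in cEILP_WT. ILCP_WT was lowest without overlap with these groups. Against EILP_WT it fell by 1.13 (SE 0.30, limma adjusted p = 0.0446), and the estimates against ALP_WT and cEILP_WT were -0.84 and -0.91 (limma adjusted p = 0.0936 and 0.0953). This call passed in 6 of 27 alternatives: leaving out any 1 library other than sEILP_WT replicate 1 ended it (estimates -1.30 to -0.94, limma adjusted p 0.0512 to 0.214), as did the replicate block (-1.05, limma adjusted p = 0.0796). Within batches 1 and 2 it was -1.19 and -1.17, and neither passed.

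Further members had low ILCP_WT values without passing the test. Mrpl1, the homologue of the protein of the L1 stalk, was 4.23 and 3.13 in ILCP_WT and 4.44, 5.51 and 5.97 in ALP_WT, with an estimate of -1.63 (SE 0.52, limma adjusted p = 0.0599). Mrpl47 was 3.22 and 2.45 in ILCP_WT and 4.63, 4.86 and 4.98 in ALP_WT, with -1.90 (SE 0.64, limma adjusted p = 0.0719). Its exons overlap those of Actl6a and Ndufb5 on the opposite strand, and its EILP_KO libraries were far apart, at 3.54 and 5.70. Mrpl17 was 5.30 and 6.20 in ILCP_WT and 6.58, 7.03 and 6.68 in ALP_WT, with -0.96 (SE 0.31, limma adjusted p = 0.0624). For all 3 genes the ILCP_WT libraries lay below those of ALP_WT, EILP_WT and cEILP_WT, although Mrpl17 in ILCP_WT replicate 2 was close to its lowest EILP_WT value, 6.22.

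The 2 ILCP_WT libraries went apart for some members. Mrpl9, homologue of a bacterial large-subunit protein, was 3.33 in replicate 1 and 6.16 in replicate 2, against 5.02 to 6.15 in the other 13 libraries. Thus replicate 1 was the lowest and replicate 2 the highest of all 15. Mrps30 was 6.80 in replicate 1 and 5.31 in replicate 2, against 5.68 to 6.61 elsewhere, so the order was the opposite. Mrps31, with the largest residual SD of the members (0.86), was 4.84 and 4.81 in ILCP_WT and had its low values elsewhere, 3.0 in cEILP_WT replicate 3 and 2.83 in EILP_KO replicate 1.

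By subunit and origin, ILCP_WT vs ALP_WT gave medians of -0.55 over the Mrpl genes and -0.34 over the Mrps genes. The shares with a negative estimate were 83.0% (39 of 47) and 82.8% (24 of 29). Members counted with a bacterial homologue had a median of -0.57, with 42 of 46 negative. Those counted as mitochondria-specific had -0.22, with 20 of 29 negative. Against EILP_WT the medians were -0.41 for Mrpl genes (41 of 47 negative) and -0.20 for Mrps genes (20 of 29 negative). They were -0.39 and -0.10 for members counted with and without a bacterial homologue. Against cEILP_WT the medians were -0.37 for Mrpl genes (40 of 47 negative) and -0.18 for Mrps genes (22 of 29 negative). For members counted with and without a bacterial homologue they were -0.30 (37 of 46 negative) and -0.22 (24 of 29 negative). These subsets are described and were not compared by a test.

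Mrps18a, Mrps18b and Mrps18c are paralogues related to the same bacterial small-subunit protein. In the classes used here, Mrps18c was counted with a bacterial homologue and Mrps18a and Mrps18b as mitochondria-specific. Mrps18a, in the large subunit, averaged 6.09 ± 0.63 (SD, n = 3) in ALP_WT and 5.13 ± 0.21 (n = 2) in ILCP_WT. Mrps18b averaged 4.81 ± 0.11 and 4.40 ± 0.42, and Mrps18c 5.83 ± 0.17 and 5.17 ± 0.59, in the same 2 groups. All 3 had both ILCP_WT libraries below ALP_WT, with estimates of -0.93, -0.36 and -0.63, and none passed limma (adjusted p = 0.257, 0.671 and 0.259). Mrps36 averaged 4.65 ± 0.21 in ALP_WT and 4.27 ± 0.32 in ILCP_WT, with overlap, and an estimate of -0.37 (limma adjusted p = 0.672).

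Between ALP_WT and EILP_WT, 0 members changed by limma, with 3.21% of all tested genes called. The median was -0.08 for members and -0.01 for all tested genes, and 53 members (69.7%) were negative against 50.5% of all tested genes. By limma, 3 members (background 16.5%) had an unadjusted p under 0.05. Mrps10 was 5.29, 5.10 and 5.22 in EILP_WT and 6.26, 6.69 and 6.51 in ALP_WT, with an estimate of -1.33 (SE 0.40, limma adjusted p = 0.105). Without ILCP_WT replicate 1 or 2, libraries that only inform the spread and the batch term here, it was -1.22 both times and passed (limma adjusted p = 0.0235 or 0.0203). Mrps6 was 4.29, 3.81 and 3.59 in EILP_WT and 5.11, 5.13 and 5.27 in ALP_WT, with -1.29 (SE 0.44, limma adjusted p = 0.153). Its exons overlap those of Slc5a3 on the same strand. Mrpl48 was 4.84, 5.26 and 5.42 in EILP_WT and 6.04, 6.09 and 5.79 in ALP_WT, with -0.73 (SE 0.27, limma adjusted p = 0.187). The groups did not overlap for any of these 3 genes. Of all members, 7 were wholly lower in EILP_WT and 2 wholly higher (9.7% and 9.52% of all tested genes).

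Between sEILP_WT and ALP_WT, 0 members changed by limma, with 0.803% of all tested genes called and 2 members (background 9.13%) at an unadjusted p under 0.05. The members' median was -0.04, with 42 (55.3%) negative against 49.6% of all tested genes. Mrpl45, which ties the ribosome to the inner membrane, was 6.71 and 6.73 in sEILP_WT and 5.12, 6.29 and 5.71 in ALP_WT, with an estimate of 1.14 (SE 0.38, limma adjusted p = 0.336). Mrps17 was 5.87 and 5.62 in sEILP_WT and 7.05, 6.17 and 6.36 in ALP_WT, with -0.86 (limma adjusted p = 0.489).

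From sEILP_WT to cEILP_WT, 0 members changed, as did 0.0% of all tested genes by limma, while 647 genes (5.15%) and 1 member had an unadjusted p under 0.05. The members' median was -0.08, with 46 (60.5%) negative against 51.7% of all tested genes. The 1 member was Mrpl3, 6.01, 5.98 and 6.32 in cEILP_WT and 6.69 and 6.59 in sEILP_WT, with -0.58 (SE 0.23, limma adjusted p = 0.851).

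EILP_KO was compared with EILP_WT to ask what loss of the second Tcf7 allele changed. Tcf7, which encodes the transcription factor TCF-1, fell by 3.34 in EILP_KO (limma adjusted p = 0.00151). None of the members changed, with 0.103% of all tested genes called by limma and 1 member (background 8.7%) at an unadjusted p under 0.05. The median was 0.12 for members and 0.04 for all tested genes, and 53 members (69.7%) were positive against 52.8% of all tested genes. Mrpl48, the 1 member, was 6.01 and 6.29 in EILP_KO and 4.84, 5.26 and 5.42 in EILP_WT, with an estimate of 0.94 (SE 0.29, limma adjusted p = 0.427). Mrps6 was 5.13 and 4.37 in EILP_KO against 4.29, 3.81 and 3.59, with 0.87 (limma adjusted p = 0.633). Both were wholly higher in EILP_KO, Mrps6 narrowly. All 20 cell cycle genes had positive estimates in the same comparison (median 0.46), with 0 called. The summed erythroid markers (8 genes) were 8.93 to 10.56 in EILP_KO and 5.95 to 9.02 in EILP_WT, and the neutrophil markers (7 genes) 11.77 to 12.16 and 8.40 to 11.71. Of these markers 0 were called, and 1 erythroid and 2 neutrophil genes had negative estimates. Camp, a neutrophil marker, lay at the lowest value in every EILP_KO library, while Mpo averaged 11.78 there. The part of these genes in the members' values was not tested.

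The genes around the mitochondrial ribosome were described from lists beside the members. For reference, 13.4% of all tested genes were called in ILCP_WT vs ALP_WT, 7.86% as lower. Of 19 tested genes of protein import into mitochondria, 3 fell and 0 rose in ILCP_WT vs ALP_WT, with a median of -0.63: Hspa9, the import motor chaperone, by 0.98, and Tomm20 and Tomm5, parts of the outer membrane translocase, by 1.10 and 1.29. Of 26 ribosome assembly and rRNA modification genes, 3 fell (Mettl15, Mrm1 and Trub2) and the median was -0.47. Trub2 averaged -0.50 ± 5.73 (SD, n = 2) in ILCP_WT, so its 2 libraries were far apart (limma adjusted p = 0.0493). Mrm1, an rRNA methyltransferase, fell by 1.85, and Mettl15 lay at the lowest value in both ILCP_WT libraries. Of 10 genes of mitochondrial DNA transcription and replication, 1 fell, Ssbp1, the single-stranded DNA binding protein, by 1.10, and the median was -0.84. None of 17 mitochondrial tRNA synthetases or of 15 translation factors changed (medians -0.24 and -0.02). The 15 transcripts encoded by mitochondrial DNA had 0 calls and a median of -0.18. The 6 ribosomal proteins of the organelle whose symbols fall outside the rule, such as Dap3 and Ptcd3, had 0 calls and a median of -0.39, with 5 of 6 negative.

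Cytosolic ribosomal proteins had a lower median than the members. In ILCP_WT vs ALP_WT, 54 of 85 fell and 0 rose, with a median of -0.81. Against EILP_WT 9 fell (median -0.51) and against cEILP_WT 15 (median -0.49), with 0 rising. Their summed level was 14.05 in both ILCP_WT libraries and 14.31 to 14.98 in the other 13. Whether these genes and the members differ in their change was not tested.

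Against EILP_WT, 1 import gene fell in ILCP_WT (Tomm5, by 1.36) and 1 translation factor, Gfm1, an elongation factor of mitochondria, which fell by 1.45 (SE 0.39, limma adjusted p = 0.044). Against cEILP_WT, Hspa9 fell by 0.77 and the rRNA methyltransferases Mettl15 and Nsun4 fell, Nsun4 by 1.92. Among 11 regulators known for mitochondrial or ribosomal genes, Myc fell by 2.49 against ALP_WT, by 1.30 against EILP_WT and by 2.16 against cEILP_WT. Mycn rose by 1.12 against ALP_WT and fell by 1.59 against EILP_WT and by 1.95 against cEILP_WT. Gabpb1, a partner of GABPA, fell by 0.80 in ILCP_WT against ALP_WT. In EILP_WT vs ALP_WT, Myc fell by 1.19, Gabpb1 fell by 1.01 and Mycn rose by 2.71. No member was called in that comparison, where 53 of the 76 had negative estimates. Mycn rose in sEILP_WT vs ALP_WT too. The part of the regulators in the members' values was not tested.

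Cell cycle genes moved beside the members in part of the comparisons. In ILCP_WT vs ALP_WT 8 of 20 fell, among them Mcm7 by 1.30 and Aurkb by 1.71, with a median of -0.82. Against EILP_WT 1 fell (median -0.16), and against cEILP_WT 2 rose and 2 fell (median 0.40), while the members' median was -0.29. In EILP_WT vs ALP_WT 4 fell and all 20 had negative estimates (median -0.76), while the members' median was -0.08 with 0 called. The summed level of the 20 genes was 12.40 to 12.59 in ILCP_WT, 13.22 to 13.35 in ALP_WT, 12.38 to 12.86 in EILP_WT and 12.52 to 12.77 in cEILP_WT. The part of cell cycle genes in the members' values was not tested.

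**Figure D5:**
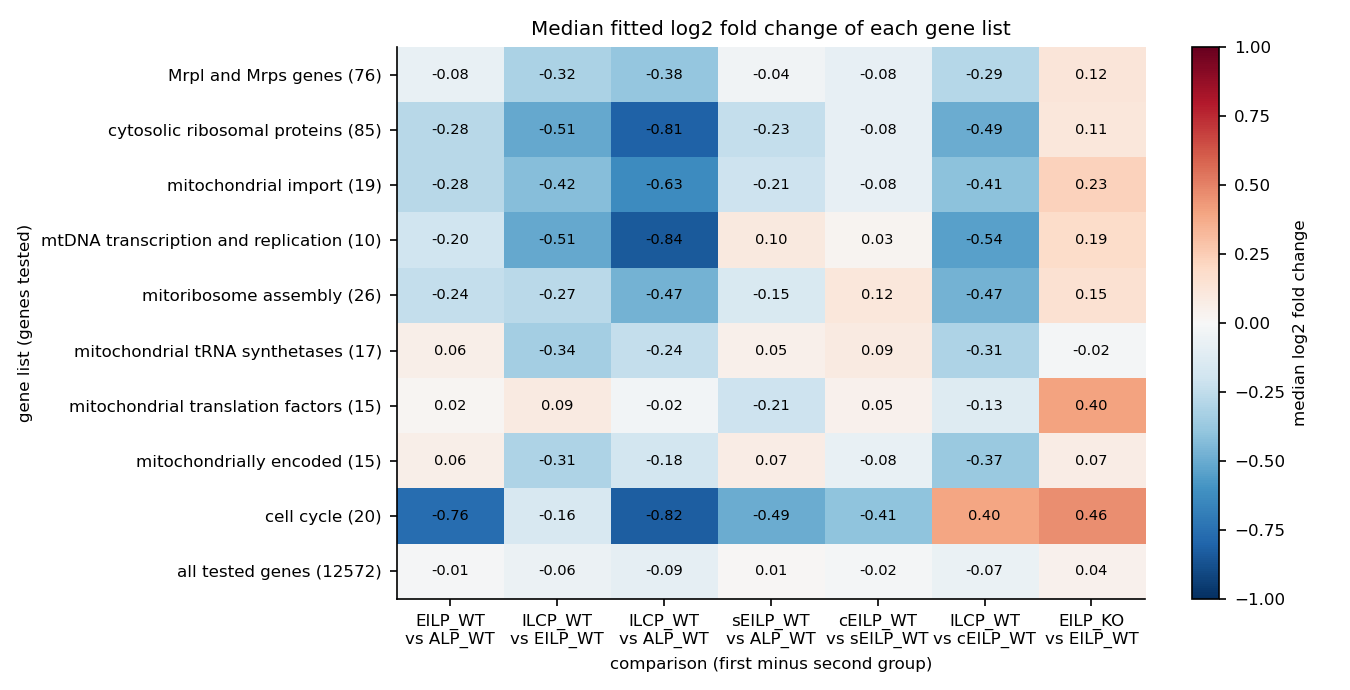
Median fitted log2 fold change of the members, of 8 other gene lists and of all tested genes in the 7 comparisons, with the number of genes tested in brackets. The members' row is negative in the 3 ILCP_WT columns (-0.32, -0.38 and -0.29), where that of the cytosolic ribosomal proteins is lower (-0.51, -0.81 and -0.49).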

How the data were processed

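The deposited table holds log2 values of 12798 genes in 15 libraries. Per the submitters' processing notes, bcl2fastq 2.17, STAR 2.5.2b, RSEM 1.2.23 and limma (no version) were used with mm10; the annotation is not given in the sources used here. Per the labels, libraries were made with SMARTer Ultra Low Input and Nextera XT kits. The deposited log2 values look quantile-normalised on a per-million scale, as read from the values. A further 24 unnamed columns were not used.

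Groups and batches came from the labels: 9 libraries in batch 1 and 6 in batch 2, with sEILP_WT in batch 1 only. A gene was tested if 2 or more libraries held it at log2 0 or above (12572 genes). A limma 3.58.1 model in R 4.3.3 took group and batch as terms over all 15 libraries, with an intensity trend in eBayes. Benjamini-Hochberg adjustment covered all tested genes of a comparison, with a threshold of 0.05. The fit was tested on simulated data. The batch term passed for 0 genes, with 954 genes at an unadjusted p under 0.05. Summed marker levels are log2 of the summed linear values. Motifs were searched with Python 3.11.15. Members were named by the extremes of level, range and spread, the smallest p-values and the paralogues; Mrps30, Mrps31 and Mrpl9 fall under these. The members and gene lists were chosen with earlier results of these data known. Alternatives covered normalisation, filters, model terms, batches and each library left out.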

Additional observations from a re-analysis of the deposited data

How the results depend on the processing

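With 2 or 3 libraries a group, the calls rest on a spread shared by all 15 libraries. In fits of only the 2 groups compared, 0 members passed in each of the 3 ILCP_WT comparisons. Batch 1 alone gave 1 member in each of these and 1 in the F test, and batch 2 alone gave 0 in all 4. Without an intensity trend, 2 members fell in ILCP_WT vs EILP_WT and 1 passed the F test. Medians that moved by more than the pooled SD of the library medians (0.0915) were 0.063 in EILP_WT vs ALP_WT with batch 1 alone, 0.13 in sEILP_WT vs ALP_WT with only the 2 groups and with batch 1 alone, and, in ILCP_WT vs cEILP_WT, -0.39 with batch 1 alone and -0.19 with cyclic loess. Smaller moves included a change of sign in cEILP_WT vs sEILP_WT, to 0.0046 with only the 2 groups and with batch 1 alone, and -0.15 in EILP_WT vs ALP_WT with batch 2 alone. No result turned direction after passing the test.

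Leaving out 1 library at a time, the members called ranged from 0 to 1 in EILP_WT vs ALP_WT, 3 to 5 in ILCP_WT vs EILP_WT, 3 to 7 in ILCP_WT vs ALP_WT, 1 to 4 in ILCP_WT vs cEILP_WT and 1 to 3 in the F test, and stayed at 0 in the other 3 comparisons. The count was 3 against EILP_WT without EILP_WT replicate 1 or 3 or ILCP_WT replicate 1, 3 against ALP_WT without ALP_WT replicate 2 or 3, and 1 against cEILP_WT without cEILP_WT replicate 2. The medians ranged from -0.20 to -0.049, -0.42 to -0.26, -0.54 to -0.36, -0.40 to -0.26 in the first 4 comparisons of this paragraph, -0.11 to 0.00 in sEILP_WT vs ALP_WT, -0.15 to 0.00 in cEILP_WT vs sEILP_WT and 0.07 to 0.17 in EILP_KO vs EILP_WT. Where a group keeps 1 library, that library is assumed to vary like the others.

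Replicate numbers showed no pairing of the libraries in a weak check: of 33 same-numbered pairs, 0 had a correlation of deviations over 0.1 (-0.0726 to 0.0486). In groups of 2 libraries the deviations from the group mean mirror each other, so pairing is not excluded. With the replicate block, 4 members fell in ILCP_WT vs EILP_WT, 5 in ILCP_WT vs ALP_WT and 2 in ILCP_WT vs cEILP_WT, and 2 passed the F test. No member lay at a lowest value, so leaving such members out changes nothing, and no pseudocount was needed. Without depth, no limit of detection is given.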
